A study of Mus musculus with 8 samples.

Results

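The nuclear-encoded genes of the mitochondrial respiratory chain and the ATP synthase were compared between luminal progenitors (LP) and mature luminal cells of the mouse mammary gland. Members were chosen by their gene symbols alone, as every gene of the deposited count table whose symbol marks it as part of complex I (Nduf), complex II (Sdh), complex III (Uqcr, Cyc1), complex IV (Cox4 to Cox8), the ATP synthase (Atp5) or as cytochrome c (Cycs). Of 24594 listed genes, 101 had such a symbol. The pseudogene Ndufs5-ps was left out, Cox8b and Cox8c had no count in any library, and 98 members were left, all of them protein-coding. Of these, 94 passed the filter on low counts, and Cox4i2, Cox6a2, Cox6b2 and Cox7b2 did not. Some of these symbols belong to factors that help to assemble complexes I and II (Ndufaf, Sdhaf), and these were kept as a group of their own.

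Both groups came from untreated adult virgin C57BL/6J mice of wild type genotype, and no transgene or treatment separated them. The labels name EpCAM, CD49f, c-Kit and CD14 as sort markers, after removal of cells bearing TER-119, CD31 or CD45. The study describes the split of these luminal cells by c-Kit, with the c-Kit high fraction taken as LP and the c-Kit low fraction as mature cells. Each group held 4 libraries, made from a small amount of amplified RNA. The study's methods call its replicates biological, while the labels do not say which mice the libraries of a group came from, and the p-values measure the spread between these libraries. LP and mature libraries with the same replicate number share a number in the labels, which do not say what it marks. The main test did not use these numbers as pairs. The study asked with these libraries which genes distinguish the progenitors from the mature cells.

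LP libraries held 5510863 to 7089597 counts and mature libraries 4410049 to 7791593. The sorted identities were checked on markers. Kit, Elf5 and Cd14 were higher in LP and Esr1, Pgr, Prlr, Foxa1 and Areg were lower, whereas Aldh1a3, the fourth LP marker, missed the threshold (adjusted p = 0.0512 from edgeR). Kit encodes the marker of the split itself, and Cd14 encodes a sort marker named in the labels. The summed level of the 4 LP markers was 13574 to 20040 counts scaled to 1e+06 per library (CPM) in LP and 244 to 966 CPM in mature libraries, with the highest mature value in replicate 3. Of the other cell types the gland could hold, 9 basal markers summed to 18.2 to 49.6 CPM in LP and 15.9 to 79.4 CPM in mature libraries. Krt17 had the highest mean in each group, and Krt5 had at most 2.17 CPM. None of the 5 tested basal markers was called. The log2 fold changes (LP over mature) were -2.47 for Acta2, whose groups did not overlap, -1.88 for Krt14 and -1.44 for Cnn1. Those of Oxtr (3.12) and Krt17 (0.57) went the other way. The 6 fibroblast markers summed to 7.35 to 41.7 CPM and 27 to 179 CPM. Of this, Dcn had 24.7, 23.3, 10.6 and 1.53 CPM in LP and 132, 154, 14.1 and 20.6 CPM in mature libraries, and Col1a1 stayed at most 1.74 CPM. White adipocyte, endothelial and immune markers summed to at most 8.48 CPM in any library, Lep, Cidec, Kdr and Cd3e were at 0 in all libraries, and of the 2 markers of brown fat Ucp1 had a count in 1 library while Cidea had 11.2 to 25.4 CPM in LP and 4.82 to 31.0 CPM in mature libraries. Skeletal muscle markers summed to 14.3 to 28.8 CPM in LP and 27.4 to 43.3 CPM in mature libraries. Red blood cell markers summed to 1.87 to 87.5 CPM and 6.04 to 69.0 CPM, highest in replicate 4 of each group. The part of these cells in the results below was not tested. In bulk RNA, fewer cells of a type and less RNA per cell cannot be told apart.

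The respiratory chain moves electrons from NADH and succinate to oxygen and pumps protons across the inner mitochondrial membrane, and the ATP synthase uses their return to make ATP. Complex I takes electrons from NADH, complex II from succinate. Complex III passes them from ubiquinol to cytochrome c, and complex IV from cytochrome c to oxygen. Complex II is wholly encoded in the nucleus, while the other complexes join nuclear subunits with a few made from mitochondrial DNA. The mitochondrial DNA-encoded subunits were not analysed here. Mammary luminal cells comprise progenitors, from which milk-secreting alveolar cells arise, and mature cells that carry receptors for oestrogen, progesterone and prolactin.

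The promoters of 6 members are shown, chosen after their values were seen. Ndufa4, Cox7a2l and Uqcrc1 are among the members with the smallest adjusted p, Cox8a is a further complex IV gene lower in LP, and Atp5g1 and Atp5g2 code for the same mature protein. Each runs from 250 bases before a RefSeq transcript start to 50 bases after it, on the GRCm38.p6 assembly, 5′ to 3′ on the strand of the gene. Capitals mark matches to motifs of factors known to act on respiratory genes, searched on both strands, namely NRF1 (CGCATGCG), the ETS factor GABPA (CCGGAAG), YY1 (AANATGGCG) and the oestrogen-related receptors (ERR, TNAAGGTCA). Ndufa4 (higher in LP) lies at chr6:11907401-11907700 on the minus strand, Uqcrc1 (higher in LP) at chr9:108936398-108936697 on the plus strand and Atp5g1 (higher in LP) at chr11:96075582-96075881 on the minus strand. Cox7a2l (lower in LP) lies at chr17:83514284-83514583, Cox8a (lower in LP) at chr19:7217567-7217866 and Atp5g2 (lower in LP) at chr15:102670998-102671297, all on the minus strand.
Ndufa4: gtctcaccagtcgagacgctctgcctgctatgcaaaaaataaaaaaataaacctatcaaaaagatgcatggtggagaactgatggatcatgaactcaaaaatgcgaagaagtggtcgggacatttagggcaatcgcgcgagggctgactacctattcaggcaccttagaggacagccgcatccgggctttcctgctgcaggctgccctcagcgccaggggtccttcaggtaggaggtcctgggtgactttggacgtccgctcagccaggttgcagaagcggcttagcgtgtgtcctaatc
Uqcrc1: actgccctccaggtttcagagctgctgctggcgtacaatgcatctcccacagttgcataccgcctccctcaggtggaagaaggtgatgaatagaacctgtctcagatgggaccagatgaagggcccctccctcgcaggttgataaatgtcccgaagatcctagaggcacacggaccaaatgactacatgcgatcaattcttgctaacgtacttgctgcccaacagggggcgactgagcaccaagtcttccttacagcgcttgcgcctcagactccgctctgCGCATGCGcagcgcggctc
Atp5g1: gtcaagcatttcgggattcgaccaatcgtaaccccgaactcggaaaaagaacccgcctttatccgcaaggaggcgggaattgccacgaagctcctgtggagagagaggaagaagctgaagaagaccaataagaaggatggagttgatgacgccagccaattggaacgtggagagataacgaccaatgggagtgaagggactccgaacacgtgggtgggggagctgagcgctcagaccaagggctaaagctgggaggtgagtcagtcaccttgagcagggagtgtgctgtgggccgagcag
Cox7a2l: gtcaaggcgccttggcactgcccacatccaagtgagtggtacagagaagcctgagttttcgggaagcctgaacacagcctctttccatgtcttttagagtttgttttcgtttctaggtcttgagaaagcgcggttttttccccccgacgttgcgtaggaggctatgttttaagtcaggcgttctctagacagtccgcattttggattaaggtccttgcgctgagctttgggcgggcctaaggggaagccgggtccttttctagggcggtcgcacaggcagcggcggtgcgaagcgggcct
Cox8a: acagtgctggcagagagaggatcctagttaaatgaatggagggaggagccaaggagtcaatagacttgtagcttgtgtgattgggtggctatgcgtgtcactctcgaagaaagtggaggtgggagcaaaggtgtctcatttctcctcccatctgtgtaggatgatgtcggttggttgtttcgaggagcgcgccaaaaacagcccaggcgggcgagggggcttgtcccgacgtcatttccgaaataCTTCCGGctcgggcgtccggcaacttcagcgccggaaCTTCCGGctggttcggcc
Atp5g2: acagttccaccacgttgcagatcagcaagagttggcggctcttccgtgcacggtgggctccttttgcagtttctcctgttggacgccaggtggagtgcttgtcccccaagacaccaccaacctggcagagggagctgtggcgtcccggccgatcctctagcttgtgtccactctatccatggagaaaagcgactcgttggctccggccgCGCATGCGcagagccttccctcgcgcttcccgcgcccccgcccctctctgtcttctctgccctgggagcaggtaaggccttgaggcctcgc

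The NRF1 letters stood in the promoters of Uqcrc1 and Atp5g2, which differed in opposite directions, and the ETS letters occurred in 2 places in Cox8a. None of the 4 motifs occurred in the windows of Ndufa4, Cox7a2l and Atp5g1, which says only that these letters are not in these windows. Of the members, 80 had a promoter in the table. The ETS letters were in 27.5% of these 80 members against 9.93% of the 27025 genes in the table, the NRF1 letters in 15% against 2.07%, the YY1 letters in 15% against 2.76% and the ERR letters in 3.75% against 1.43%. No matches of different motifs overlapped in the members. Among the 14 members with a promoter that were higher in LP, 4 held the ETS, 3 the NRF1 and 2 the YY1 letters, and among the 11 lower members 5, 2 and 1 did. The 3 members with the ERR letters were not among those called. A match is a description of the sequence and not a binding site.

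A gene was called when its adjusted p-value was under 0.05 in edgeR's quasi-likelihood test on TMM-normalised counts, with adjustment over all 12816 tested genes. A positive log2 fold change means a higher level in LP. Of the 94 tested members 27 were called, or 28.7%, against a background of 24.7% of all tested genes, so the share of calls stood near that of the transcriptome. Of these, 15 were higher in LP, where 10.9% of all tested genes were, and 12 were lower, where 13.8% were. In 34 members the values of LP and mature libraries were fully separate (36.2%) against 29.5% of all tested genes. The median log2 fold change over the members was 0.06 and over all tested genes 0.00. Calls ran in both directions in complexes I, III and IV and in the ATP synthase.

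Most differences were small. The median absolute log2 fold change was 0.38 over the members and 0.55 over all tested genes, and 10.6% of the members lay beyond 1 in either direction against 25.9% of all tested genes. Members were also highly expressed. Per kilobase of mRNA, the median member had 98.5 CPM against 9.02 CPM for all tested genes with a length, and 61 of 93 members lay in the top 10% of these genes. Their replicates varied less, with a median within-group SD of 0.24 on the log2 CPM scale against 0.44 for all tested genes, and the median standard error of a member's log2 fold change was 0.18. The members lay on 19 chromosomes.

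**Figure D1:**
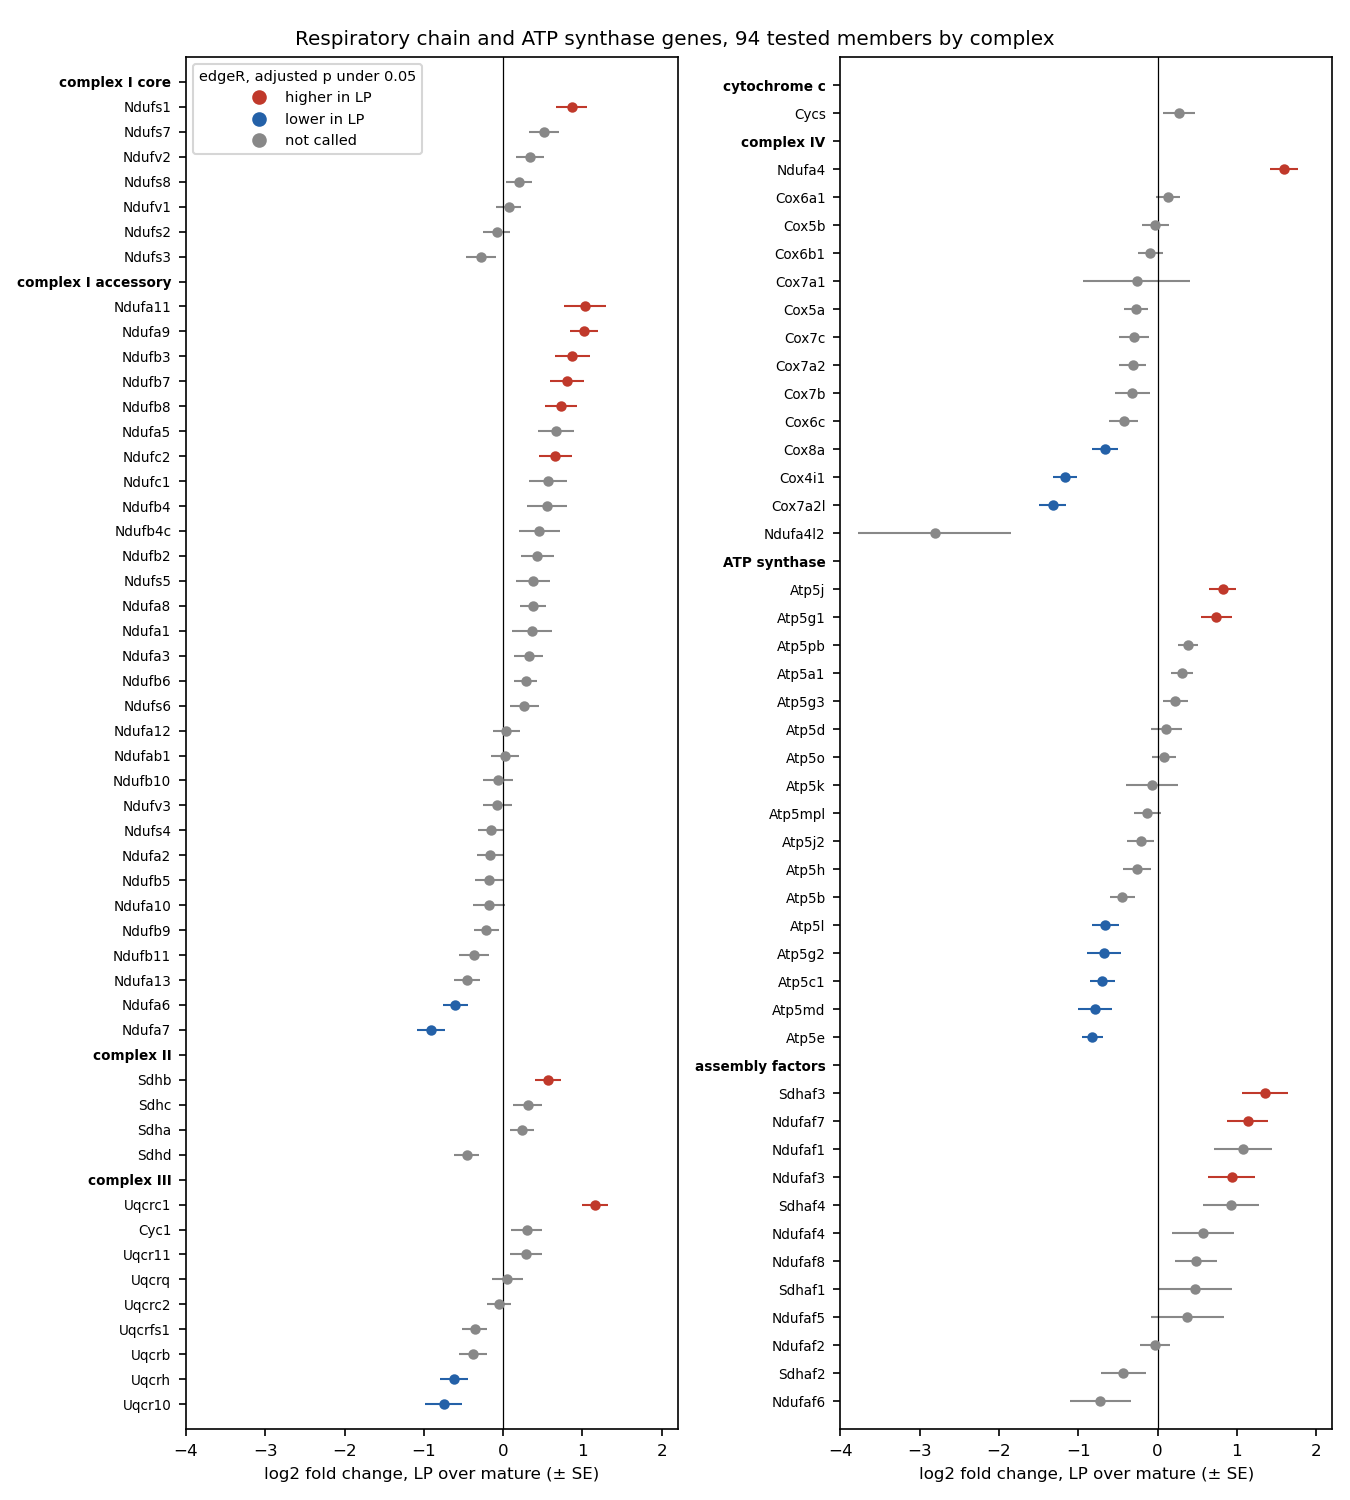
Log2 fold change (LP over mature, x axis) of each of the 94 tested members, grouped by complex, with bars for the standard error and colours for the call by edgeR. Most of complex IV lies left of zero, with Ndufa4 far to the right at 1.6, and most of complex I and the assembly factors lie right of zero.

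Of the 13 calls that held under every one of the 16 alternative settings tried, the largest was Ndufa4. Ndufa4 (chr6:11900372-11907450) was first counted among complex I proteins and is now known as a subunit of complex IV, where it is placed here. Its level was 416, 479, 325 and 442 CPM in the LP libraries and 116, 155, 129 and 149 CPM in the mature libraries. The lowest LP library lay above the highest mature library by more than the whole spread of the mature group. The log2 fold change of Ndufa4 was 1.6 ± 0.175 (SE, n = 4 per group), with an adjusted p of 0.000374 from edgeR.

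Cox4i1, Cox7a2l and Cox8a of complex IV were lower in LP. Cox4i1 (chr8:120668225-120674209), the common form of the subunit that responds to ATP, had 329, 362, 373 and 357 CPM in LP and 746, 797, 729 and 916 CPM in mature libraries. It had the highest level per length of all members (773 CPM per kilobase), and the LP libraries lay close together and far below the mature ones. Its log2 fold change was -1.17 ± 0.151 (SE, adjusted p = 0.000681 from edgeR). Of the 51-base stretches of its mRNA, 12.1% also occur in the neighbouring gene Emc8. Cox7a2l (chr17:83501917-83514333), whose protein is described as joining complexes III and IV into supercomplexes, had 145, 150, 174 and 164 CPM in LP and 339, 350, 391 and 506 CPM in mature libraries. C57BL/6J mice are known to carry a short form of this protein. Counts per gene do not tell its forms apart, and whether the short form joins the complexes was not tested. The groups were again far apart, with a log2 fold change of -1.32 ± 0.170 (SE, adjusted p = 0.000672 from edgeR). Of the 51-base stretches of the Cox7a2l mRNA, 19.6% also occur in Gm6969. Cox8a (chr19:7215158-7217616), the common form of the smallest subunits, had 169, 171, 164 and 211 CPM in LP and 253, 261, 271 and 350 CPM in mature libraries. The difference on the log2 scale was -0.67 ± 0.163 (SE, adjusted p = 0.0136 from edgeR), and scaling by library totals alone ended this call (-0.49, adjusted p = 0.0591 from edgeR).

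Of the 14 tested complex IV genes 28.6% were called, against 24.7% of all tested genes. In all, 1 complex IV gene was higher in LP and 3 were lower, while 10 did not pass the test. The median log2 fold change was -0.30 and 12 of the 14 values were negative. Cox5a, Cox5b, Cox6a1, Cox6b1, Cox6c, Cox7a2, Cox7b and Cox7c, the other subunits found in most tissues, had log2 fold changes of -0.43 to 0.13 with adjusted p-values of 0.116 to 0.921 from edgeR. The median deviation of complex IV genes from their means over the 8 libraries was -0.19, -0.06, -0.37 and -0.04 in the LP libraries and 0.04, 0.24, 0.15 and 0.31 in the mature libraries on the log2 CPM scale. All LP libraries lay below all mature libraries by this measure. LP replicate 3 was the lowest LP library for complex IV and also for every other complex, cytochrome c, the ATP synthase and the assembly factors.

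**Figure D2:**
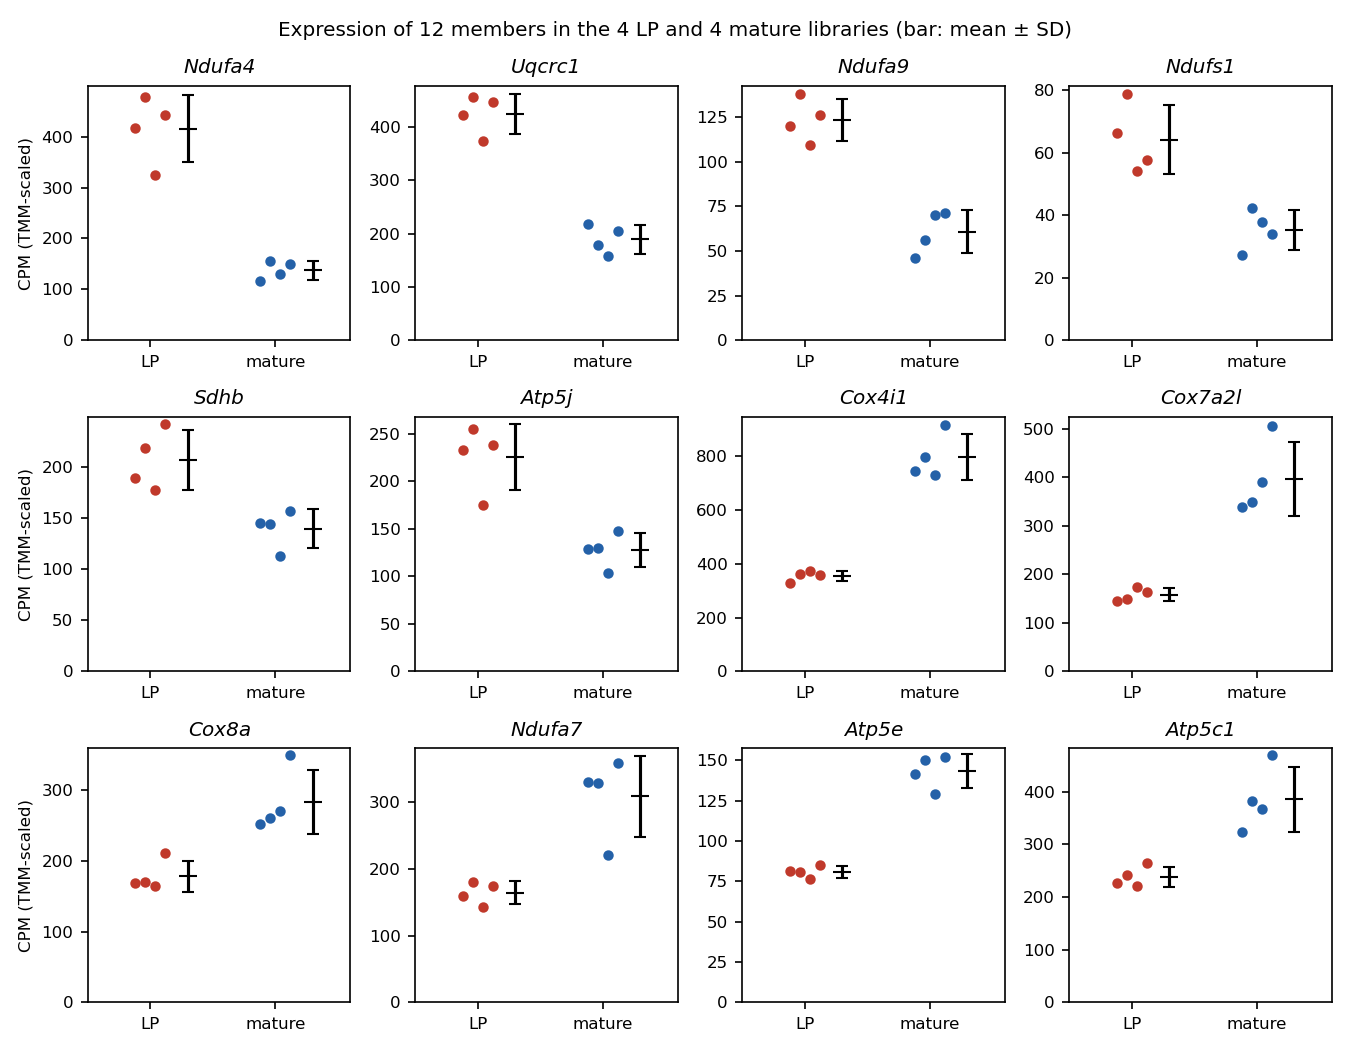
CPM (y axis, from 0) of 12 called members in each of the 4 LP (red) and 4 mature (blue) libraries, with the mean ± SD beside the points. In every panel the groups do not overlap. Ndufa4, Uqcrc1, Ndufa9, Ndufs1, Sdhb and Atp5j are higher in LP, and Cox4i1, Cox7a2l, Cox8a, Ndufa7, Atp5e and Atp5c1 are lower.

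Complex I holds a core that carries the electron path and a larger set of accessory subunits. Of the 7 core genes in the nucleus, 14.3% were called, against 24.7% of all tested genes. The core genes had a median log2 fold change of 0.20. None of them was lower in LP (0 at an unadjusted p under 0.05 in edgeR, and 0 by DESeq2), and 1 was higher. This was Ndufs1, the largest iron-sulphur subunit, with 66.4, 78.8, 54.1 and 57.7 CPM in LP and 27.3, 42.3, 38.0 and 34.1 CPM in mature libraries. Its groups did not overlap, and the log2 fold change was 0.86 ± 0.20 (SE, adjusted p = 0.0105 from edgeR). Ndufs8, the core subunit with the highest level per length (98.5 CPM per kilobase), had 94.2, 114, 85.3 and 120 CPM in LP and 93.1, 83.8, 80.0 and 104 CPM in mature libraries, and its groups overlapped (0.20 ± 0.165, adjusted p = 0.411 from edgeR).

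Of the 30 accessory genes of complex I, 26.7% were called, against 24.7% of all tested genes. Of these accessory genes 6 were higher in LP and 2 were lower, with a median log2 fold change of 0.30. Ndufa9, which binds NADPH beside the quinone site, had 120, 138, 109 and 126 CPM in LP and 46.1, 55.9, 70.02 and 71.3 CPM in mature libraries. It differed by 1.02 ± 0.177 on the log2 scale (SE, adjusted p = 0.00261 from edgeR). Ndufa11, a membrane arm subunit, had 45.4, 55.1, 49.0 and 57.6 CPM in LP and 15, 26.3, 36.5 and 23.5 CPM in mature libraries, a log2 difference of 1.03 ± 0.260 (SE, adjusted p = 0.0155 from edgeR). Both held under all settings. Ndufb3, Ndufb7, Ndufb8 and Ndufc2, further subunits of the membrane arm, had log2 fold changes of 0.87, 0.81, 0.73 and 0.66. Their calls were lost when LP replicate 2 was left out, with adjusted p-values of 0.0555, 0.0584, 0.0670 and 0.0872 from edgeR. That of Ndufb7 was also lost without LP replicate 4 (0.0573), and that of Ndufc2 without LP replicate 1 (0.0863), LP replicate 4 (0.103), mature replicate 1 (0.0936) or mature replicate 2 (0.0995).

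The 2 accessory genes lower in LP belong to the arm that takes up electrons. Ndufa7, which had the highest level per length in complex I (449 CPM per kilobase), had 160, 181, 143 and 175 CPM in LP and 330, 329, 221 and 359 CPM in mature libraries. It differed by -0.91 ± 0.180 on the log2 scale (SE, adjusted p = 0.00496 from edgeR). Ndufa6 had 155, 167, 154 and 187 CPM in LP and 230, 259, 213 and 304 CPM in mature libraries, which gave on the log2 scale -0.60 ± 0.159 (SE, adjusted p = 0.0188 from edgeR). The call of Ndufa6 was lost without LP replicate 1 (adjusted p = 0.0615), LP replicate 2 (0.0520), LP replicate 3 (0.0516) or mature replicate 4 (0.0510), and with library totals alone (0.0797), all from edgeR. The genes were also grouped by the assembly modules of complex I, a grouping made after the values had been seen. Over all tested genes, 10.9% were higher in LP and 13.8% were lower. The 10 genes of the electron input module had a median log2 fold change of -0.02 with 1 call higher and 2 lower. The quinone module (6 genes) had a median of 0.36, the proximal membrane part (9 genes) 0.37 and the distal membrane part (11 genes) 0.28, with 1, 2 and 3 calls higher in LP and none lower in edgeR. At an unadjusted p under 0.05 in edgeR, 0, 1 and 0 of these genes were lower, and DESeq2 also called 0, 1 and 0 lower. The 1 gene was Ndufa13 (-0.45, adjusted p = 0.0676 from edgeR and 0.0474 from DESeq2).

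Complex II is also the succinate dehydrogenase of the citric acid cycle. Of its 4 genes, Sdhb, the iron-sulphur subunit, was higher in LP, with 189, 218, 178 and 242 CPM against 145, 144, 112 and 157 CPM in mature libraries. The groups did not overlap, and the log2 fold change was 0.57 ± 0.165 (SE, adjusted p = 0.0287 from edgeR). The call was lost without LP replicate 2 (adjusted p = 0.0747) or LP replicate 4 (0.0854). Sdhd, a membrane anchor, had 183, 180, 175 and 182 CPM in LP and 224, 298, 201 and 265 CPM in mature libraries. Its groups did not overlap either, in the other direction, but it missed the threshold (-0.46 ± 0.156, adjusted p = 0.0544 from edgeR). Its adjusted p was 0.0295 without mature replicate 3 (edgeR) and 0.0327 by DESeq2. The flavoprotein subunit Sdha (0.24) and the other anchor Sdhc (0.31) were not called. Calls in complex II were 25% of its genes, against 24.7% of all tested genes.

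Complex III held calls in both directions. Uqcrc1 (chr9:108936648-108949641), a core protein that faces the matrix, had 422, 456, 373 and 447 CPM in LP and 219, 179, 158 and 205 CPM in mature libraries. The groups lay far apart, with a log2 fold change of 1.16 ± 0.159 (SE, adjusted p = 0.000859 from edgeR). Its partner core protein Uqcrc2 had a log2 fold change of -0.05 ± 0.153 (SE, adjusted p = 0.846 from edgeR). Uqcrh, the hinge protein at the cytochrome c site, had the highest level per length of complex III (667 CPM per kilobase), with 274, 275, 282 and 319 CPM in LP and 373, 419, 391 and 588 CPM in mature libraries. The difference on the log2 scale was -0.62 ± 0.178 (SE, adjusted p = 0.0265 from edgeR). The small subunit Uqcr10 had 136, 152, 114 and 140 CPM in LP and 288, 286, 135 and 204 CPM in mature libraries, and mature replicate 3 lay within the LP range (-0.75 ± 0.234, adjusted p = 0.0382 from edgeR). Both calls were sensitive to single libraries. Uqcrh was lost without LP replicates 1, 2 or 3 or mature replicates 2 or 4 (adjusted p of 0.0775, 0.0757, 0.0632, 0.0501 and 0.0645 from edgeR). Uqcr10 was lost without any one library except mature replicate 3, with adjusted p-values of 0.0548 to 0.106 from edgeR. Both were also lost with no filter (0.0576 for Uqcrh and 0.0642 for Uqcr10) and with library totals alone (0.108 and 0.0858).

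Over the 9 complex III genes, 1 was higher in LP and 2 were lower, with a median log2 fold change of -0.05. These calls were 33.3% of the complex, against 24.7% of all tested genes. Cyc1, the cytochrome of complex III that hands electrons on, had 117, 136, 110 and 164 CPM in LP and 103, 103, 85.3 and 138 CPM in mature libraries (0.30 ± 0.191, adjusted p = 0.291 from edgeR). Cycs, the soluble carrier cytochrome c, had 55.0, 66.7, 47.5 and 55.5 CPM in LP and 46.5, 46.8, 58.2 and 34.4 CPM in mature libraries (0.27 ± 0.20, adjusted p = 0.35 from edgeR). The groups overlapped for both, and neither passed the test. Of the 51-base stretches of the Cycs mRNA, 28.4% also occur in other genes, and its values are uncertain.

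**Figure D3:**
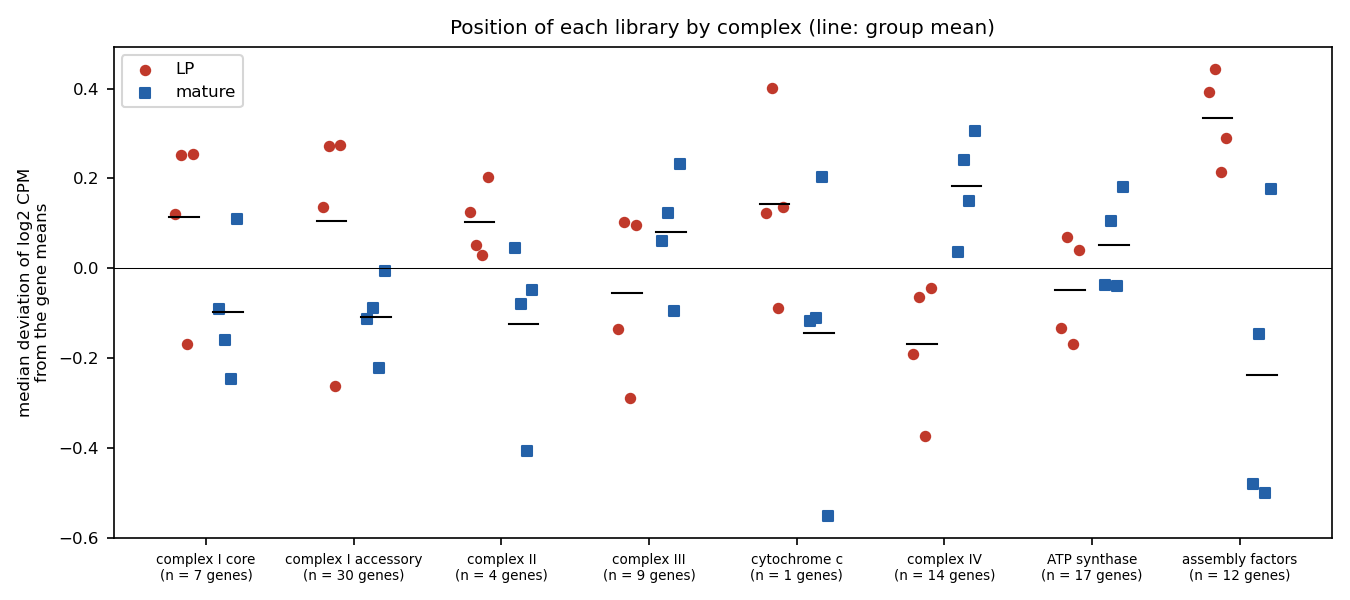
Median over the genes of each complex of the deviation of log2 CPM from each gene's mean over the 8 libraries (y axis), with 1 point per library and a line at the group mean. LP libraries (red circles) and mature libraries (blue squares) do not overlap for complex IV and the assembly factors. LP replicate 3 lies among the mature libraries for the complex I core and below all of them for the complex I accessory genes.

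In the ATP synthase, 2 of 17 genes were higher in LP and 5 were lower, with a median log2 fold change of -0.13. The groups did not overlap in 10 of these genes, 4 with LP higher and 6 with mature higher. That is 58.8% of them against 29.5% of all tested genes, and 41.2% were called against 24.7%. In the catalytic head, the gamma subunit gene Atp5c1, which forms the turning shaft, had 227, 242, 221 and 264 CPM in LP and 324, 382, 367 and 470 CPM in mature libraries (-0.70 ± 0.160, adjusted p = 0.0100 from edgeR). Atp5e, the epsilon subunit at the foot of the shaft, had 81.2, 80.6, 76.4 and 85.3 CPM in LP and 141, 150, 129 and 152 CPM in mature libraries (-0.82 ± 0.134, adjusted p = 0.00193 from edgeR). Both kept their call under all settings, and their LP and mature libraries did not overlap.

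The genes of the subunits that bind nucleotides did not pass edgeR's quasi-likelihood test. Atp5b, the catalytic beta subunit and the member with the highest level per length in the ATP synthase (356 CPM per kilobase), had 524, 526, 611 and 650 CPM in LP and 749, 704, 870 and 824 CPM in mature libraries, without overlap (-0.45 ± 0.158, adjusted p = 0.0631 from edgeR), and DESeq2 called it (adjusted p = 0.0184). Atp5a1, the alpha subunit, had 505, 479, 450 and 493 CPM in LP and 380, 349, 414 and 417 CPM in mature libraries, also without overlap but in the other direction (0.31 ± 0.142, adjusted p = 0.142 from edgeR). DESeq2 gave it an adjusted p of 0.0538, and library totals alone called it (0.0374 from edgeR).

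In the membrane part and stalk, Atp5j, the coupling factor F6, had 233, 255, 176 and 238 CPM in LP and 129, 130, 104 and 147 CPM in mature libraries (0.82 ± 0.171, adjusted p = 0.00630 from edgeR). It kept its call under all settings. Of the stretches of 51 bases, the read length, in its mRNA, 15.9% also occur in another gene, the neighbouring Gabpa among them, so reads of the 2 could not always be told apart. Atp5md and Atp5l, small subunits of the membrane part, were lower in LP with log2 fold changes of -0.79 ± 0.217 (SE, adjusted p = 0.0227 from edgeR) and -0.66 ± 0.172 (SE, adjusted p = 0.0180 from edgeR). For Atp5md 40.4% and for Atp5l 84.8% of the 51-base stretches occur in other genes, mostly pseudogenes, and their values are uncertain. The call of Atp5md was lost without LP replicate 2 (adjusted p = 0.0637), LP replicate 3 (0.0565) or mature replicate 2 (0.0656). That of Atp5l was lost without LP replicate 1 (0.0538), LP replicate 2 (0.0505) or mature replicate 4 (0.0536), all from edgeR. Library totals alone also ended the calls of Atp5md (0.0603) and Atp5l (0.0858).

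Atp5g1, Atp5g2 and Atp5g3 encode the same mature protein, subunit c of the membrane ring, with different import signals. Atp5g1 had 85.4, 96.6, 56.4 and 93.5 CPM in LP and 47.2, 47.5, 56.0 and 47.9 CPM in mature libraries. LP replicate 3 lay just above the highest mature library, and the log2 fold change was 0.74 ± 0.193 (SE, adjusted p = 0.0181 from edgeR). The call was lost without LP replicate 2 (adjusted p = 0.0578) or LP replicate 4 (0.0543). Atp5g2 had 24.4, 31.6, 32.2 and 29.4 CPM in LP and 35.7, 46.0, 43.7 and 61.9 CPM in mature libraries (-0.67 ± 0.215, adjusted p = 0.0427 from edgeR). All of its 51-base stretches occur in other genes, and its call was lost in 11 of the 16 settings, among them those without any one of the libraries except mature replicate 1, with adjusted p-values of 0.0630 to 0.127 for these. Atp5g3, with the highest counts of the 3 genes, was not called (0.23 ± 0.152, adjusted p = 0.312 from edgeR).

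Ratios between related genes within a library do not depend on how libraries are scaled. Of 11 pairs of subunit genes that share a protein or replace each other between tissues, 6 had enough counts in both genes and 5 did not. The log2 ratio of Atp5g1 to Atp5g2 counts was 1.80, 1.61, 0.81 and 1.67 in LP and 0.40, 0.05, 0.36 and -0.37 in mature libraries, a difference of 1.36. That of Atp5g2 to Atp5g3 was -2.22, -2.06, -1.86 and -2.14 in LP and -1.41, -1.03, -1.25 and -1.05 in mature libraries, a difference of -0.89. In both pairs every LP library lay outside the range of the mature libraries (p = 0.0286 by a two-sided exact test permuting the libraries, which 8 libraries cannot go below, and 0.0429 after adjustment over the 6 pairs). This test left aside the numbers shared by LP and mature libraries. An exact sign-flip test within these numbers cannot go below 0.125. For Atp5g1 to Atp5g3, a pair free of the uncertain Atp5g2, the difference was 0.48 and the groups overlapped (exact permutation p = 0.114, adjusted 0.137). Leaving out 1 library at a time ended 29 of the 32 adjusted calls of the 4 called pairs (adjusted exact permutation p of 0.0571 to 0.0857), the exceptions being 3 pairs without LP replicate 3. Without that library Atp5g1 to Atp5g3 was called instead (difference 0.63, adjusted exact permutation p = 0.0429).

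Cox7a2 and Cox7a2l are related proteins, described as competing for a place in complex IV. Their log2 ratio was -0.85, -0.96, -1.51 and -1.04 in LP and -2.17, -1.79, -2.13 and -2.26 in mature libraries, a difference of 1.00 without overlap (exact permutation p = 0.0286, adjusted 0.0429). Counts of Cox7a2l thus exceeded those of Cox7a2 in all libraries, and by more in mature cells. Mice of this strain carry a short form of Cox7a2l, and its part in linking complexes III and IV was not tested. Cox7a1, the form of heart and muscle, had at most 35 counts in a library. The ratio of Cox7a2 to Cox7a1 overlapped between the groups (difference -0.37, exact permutation p = 0.571).

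Ndufa4l2, a relative of Ndufa4 known to respond to low oxygen, had 5, 4, 0 and 11 counts in the LP libraries and 59, 2, 33 and 45 counts in the mature libraries. It missed the threshold with a log2 fold change of -2.81 ± 0.961 (SE, adjusted p = 0.0550 from edgeR), and mature replicate 2 lay within the LP range. Its adjusted p was 0.0171 by DESeq2, 0.0130 by edgeR's likelihood ratio test and 0.0338 without mature replicate 2 (edgeR). The log2 ratio of Ndufa4 to Ndufa4l2 was 9.03, 9.53, 11.9 and 8.11 in LP and 3.79, 7.89, 4.74 and 4.44 in mature libraries (exact permutation p = 0.0286, adjusted 0.0429). Its size of 4.43 rests on low counts of Ndufa4l2 and on the pseudocount for LP replicate 3, which had none. Cox4i2, Cox6a2, Cox6b2 and Cox7b2, the forms of lung, muscle or testis, reached at most 25, 1, 8 and 5 counts in a library.

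**Figure D4:**
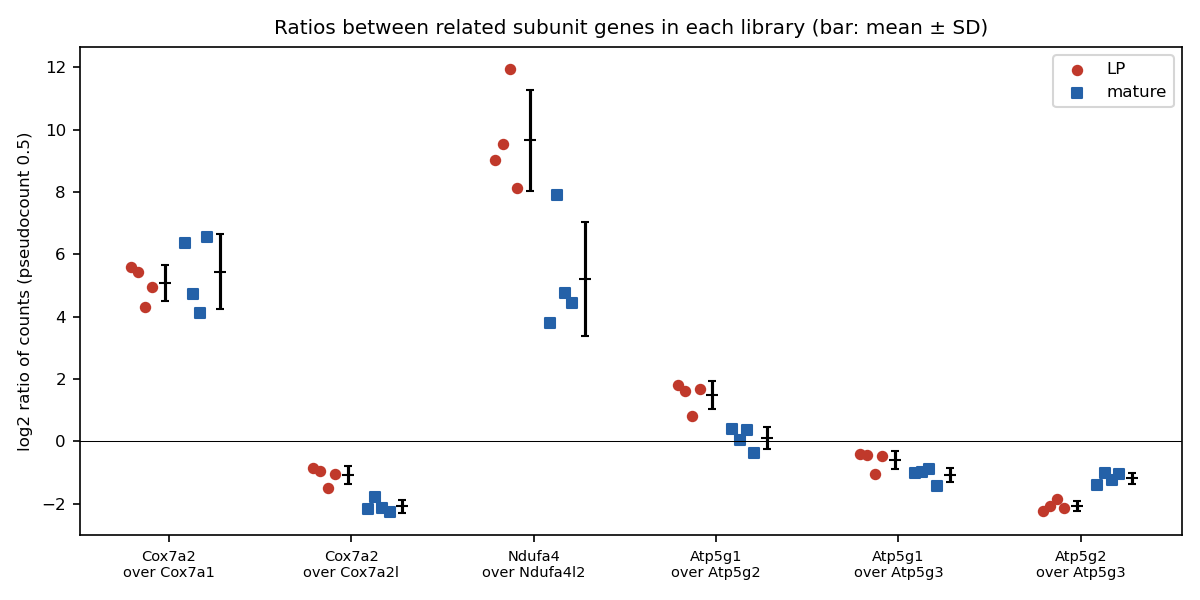
Log2 ratio of counts between related subunit genes (y axis, pseudocount 0.5) in each LP (red circles) and mature (blue squares) library, with the mean ± SD beside the points. The groups do not overlap for Cox7a2 over Cox7a2l, Ndufa4 over Ndufa4l2, Atp5g1 over Atp5g2 and Atp5g2 over Atp5g3, and overlap for Cox7a2 over Cox7a1 and Atp5g1 over Atp5g3.

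Of the 12 assembly factors among the members, 3 were higher in LP, or 25% called against 24.7% of all tested genes. None was lower (0 at an unadjusted p under 0.05 in edgeR, and 0 by DESeq2), and the median log2 fold change of these factors was 0.53. Their median deviation on the log2 CPM scale was 0.21 to 0.44 in the LP libraries and -0.50 to 0.18 in the mature libraries. Without mature replicate 4, the mature library with the highest value, the median log2 fold change was 1.03. Sdhaf3, which matures the iron-sulphur subunit of complex II, had 15.2, 20.7, 19.4 and 18.3 CPM in LP and 8.16, 7.62, 7.51 and 5.57 CPM in mature libraries (1.35 ± 0.292, adjusted p = 0.00762 from edgeR). Ndufaf7, a methyltransferase that modifies a core subunit of complex I, had 26.7, 34.4, 26.9 and 27.2 CPM in LP and 13.6, 17.1, 9.24 and 12.7 CPM in mature libraries (1.14 ± 0.260, adjusted p = 0.00996 from edgeR). Both kept their call under all settings. The third was Ndufaf3, named to complete the count (0.94, adjusted p = 0.0407 from edgeR), whose call was lost without any one library except mature replicate 4, with adjusted p-values of 0.0554 to 0.110. Ndufaf2, which had the highest level per length of this group, had a log2 fold change of -0.03 that turned positive under 6 settings.

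The direction of the calls depended in part on the scaling. TMM factors were 1.02 to 1.10 in LP and 0.866 to 0.993 in mature libraries, and without them the median log2 fold change of all tested genes moved to 0.19. Under library totals alone, an alternative added after seeing the data, 25 members were higher in LP and 5 lower, and 83.3% of the called members were higher against 55.6% with TMM. Among all called genes the share higher in LP moved from 44.1% to 61.3%. The medians themselves moved, from -0.05 to 0.14 in complex III and from -0.13 to 0.055 in the ATP synthase. Relative to the median of all genes they stayed at -0.30 in complex IV, -0.13 in the ATP synthase and 0.30 for the accessory genes of complex I. A change of scaling shifts all genes by nearly the same amount, so these relative values could hardly move and are no check of the pattern. The members made up 1.18%, 1.28%, 1.07% and 1.22% of all counts in the LP libraries and 1.02%, 1.03%, 1.04% and 1.29% in the mature libraries, so the groups overlapped in this share.

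The number of calls also depended on single libraries. Without LP replicate 2, 8 members were higher in LP and 6 lower, and 13 of the 27 calls were lost. Fewer members were lower in LP without LP replicate 1 (7), LP replicate 3 (7) or mature replicate 4 (7). Shared sequence also bore on the counts. In 23 of the 97 members with a known mRNA, over 20% of the 51-base stretches occur in another gene, and the counting of such reads is not given in the sources used here. Over the 70 tested members below this limit, 15 were higher in LP and 9 lower, with a median log2 fold change of 0.17. Of these 34.3% were called and 40% had fully separate groups, against 24.7% and 29.5% of all tested genes.

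Other genes of the same pathway were taken from lists of mitochondrial genes. Of 39 assembly factors outside the symbol rule, 3 were higher in LP and 3 lower (15.4% called, against 24.7% of all tested genes). The median log2 fold change of these 39 factors was 0.17. Coa3, which promotes translation of a mitochondrial complex IV subunit, had a log2 fold change of 1.01 ± 0.207 (SE, adjusted p = 0.00576 from edgeR). Acad9, needed for complex I assembly, had 101, 112, 149 and 125 CPM in LP and 7.73, 12.1, 52.7 and 23.1 CPM in mature libraries (2.34 ± 0.489, adjusted p = 0.00651 from edgeR). Higd1a, a hypoxia-induced protein that binds complex IV, had 45.4, 44.7, 51 and 32.7 CPM in LP and 181, 237, 82.7 and 70.8 CPM in mature libraries (-1.71 ± 0.364, adjusted p = 0.00699 from edgeR). The mature libraries varied widely for Acad9 and Higd1a, with mature replicates 3 and 4 nearer to LP.

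Of 12 regulators of mitochondrial biogenesis, none was higher in LP (0 at an unadjusted p under 0.05 in edgeR, and 0 by DESeq2) and 5 were lower, with a median log2 fold change of -0.46. These calls were 41.7% of the list, where 24.7% of all tested genes were called and 13.8% were lower. Esrrg and Esrrb, oestrogen-related receptors, had log2 fold changes of -1.43 ± 0.320 (SE, adjusted p = 0.00885 from edgeR) and -2.73 ± 0.638 (SE, adjusted p = 0.0108 from edgeR). Esrrb was low throughout, at 0.332 to 1.94 CPM in LP and 4.2 to 9.82 CPM in mature libraries. Myc had -0.68 ± 0.209 (SE, adjusted p = 0.0357 from edgeR). The other two were Nrf1 (-0.72, adjusted p = 0.0408) and Yy1 (-0.51, adjusted p = 0.0495), named to complete the count. Leaving out single libraries gave 2 to 4 calls in this list, with 2 calls without LP replicate 1, LP replicate 2, mature replicate 1 or mature replicate 2 and 3 calls without LP replicate 3, LP replicate 4 or mature replicate 4. The call of Myc was lost without any one library except LP replicate 3 and mature replicate 4, with adjusted p-values of 0.0732 to 0.103 from edgeR.

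Coenzyme Q carries electrons from complexes I and II to complex III. Of 13 genes of its synthesis, 3 were higher in LP and 1 was lower, or 30.8% called against 24.7% of all tested genes. The median log2 fold change of the 13 genes was -0.03. Coq8a, a kinase-like protein of this pathway, had 69.4, 59.9, 113 and 119 CPM in LP and 6.75, 2.89, 12.6 and 18.4 CPM in mature libraries, without overlap (3.12 ± 0.467, adjusted p = 0.00124 from edgeR). Coq7, a hydroxylase, had a log2 fold change of 1.66 ± 0.320 (SE, adjusted p = 0.00437 from edgeR), and Pdss2, which helps to make the isoprene tail, had -0.91 ± 0.150 (SE, adjusted p = 0.00213 from edgeR). Of 4 uncoupling proteins and related carriers tested, Ucp2 was higher in LP, with 588, 572, 526 and 445 CPM against 79.5, 101, 267 and 124 CPM in mature libraries (1.89 ± 0.340, adjusted p = 0.00309 from edgeR). Its highest mature value was in replicate 3, the mature library with the highest LP markers. Slc25a30 was lower in LP, with 17.9 to 23.8 CPM against 56.3 to 115 CPM (-2.24 ± 0.239, adjusted p = 0.000326 from edgeR). These 2 calls were 50% of this short list, against 24.7% of all tested genes.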

How the data were processed

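RNA sequencing was analysed from 4 LP and 4 mature libraries. Per the labels and the methods of the study, reads of 51 bases were trimmed with cutadapt 4.2 and aligned to mm10 with Bowtie2, version 2.3.5.1 in the submitters' processing notes, which keeps reads unsplit at introns. The authors deposited raw counts per Entrez Gene ID, without normalization. The counting program, its annotation, its use of strand and the handling of multiply matching reads are not given in the sources used here. The methods state 3 biological replicates per condition, and all 8 deposited libraries were used. Replicates differed by more than counting noise (chi-square per degree of freedom of 12.6 to 95.7), so no library was counted as a copy.

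Symbols and positions came from RefSeq (GRCm38.p6), to which 24570 of 24594 IDs matched, and mRNA lengths and shared 51-base stretches from 1 GENCODE M21 transcript per gene. For Atp5g1 that transcript is longer than the RefSeq gene, and no level per length is given. Counts were normalised by TMM, filtered with filterByExpr by group and compared with edgeR 4.0.16 in R 4.3.3 by the quasi-likelihood F-test, adjusted by Benjamini-Hochberg across the tested table. Standard errors were taken as the absolute log2 fold change over the root of F. CPM (counts per library scaled to 1e+06) used the TMM-scaled library sizes. Isoform ratios used a pseudocount of 0.5, pairs with at least 10 counts for each gene in at least 4 libraries, and a two-sided exact permutation test. The tests were checked on simulated counts. Depth sets the precision, and members under the filter were given as counts. Alternatives were other factors (RLE, upper quartile, none), other filters, DESeq2 1.42.0, the likelihood ratio test, a replicate block and each library left out.

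Members and lists were chosen with earlier results of these data known. Named genes were up to 25 called members with the smallest adjusted p, the highest level per length in each group, all isoform pair members, Cycs, Cyc1 and up to 3 genes of each other list (assembly factors outside the symbol rule, biogenesis regulators, mitochondrial DNA maintenance, coenzyme Q synthesis, nucleotide and phosphate carriers, uncoupling proteins, mitochondrial ribosomal proteins, import).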

Additional observations from a re-analysis of the deposited data

Results flagged for a closer look

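In 124 groups of 4 libraries (the named genes, each in LP and in mature cells), 4 held 1 library far from the other three by Dixon's gap ratio, where chance gives about 6.2. Ndufaf7 had 34.4 CPM in LP replicate 2 against 26.7 to 27.2 CPM in the other LP libraries. Cox8a had 211 CPM in LP replicate 4 against 164 to 171 CPM. Atp5g1 had 56.0 CPM in mature replicate 3 against 47.2 to 47.9 CPM. Cox6a2 had 0.141 CPM in mature replicate 1, which is 1 count, and 0 in the other mature libraries.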

How the results depend on the processing

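Over 16 alternatives, 836 of 925 values of the 58 named genes kept their direction and their side of the threshold, 70 lost and 10 gained a call, and 9 turned direction, none of them of a called gene. Of the 27 called members, 13 kept their call throughout. Library totals without factors, added after seeing the data, gave 25 members higher and 5 lower in LP, 2 calls among biogenesis regulators and 7 among import genes, since they shift all genes towards LP. They moved the medians by complex to 0.38 (complex I core), 0.47 (complex II), 0.14 (complex III), -0.11 (complex IV) and 0.055 (ATP synthase), the sign turning in complex III and the ATP synthase. The median of complex III also ranged from -0.09 to 0.02 with 1 library left out. Biogenesis regulators gave 2 calls with no filter, 3 when each library had to hold at least 10 counts and 3 with the replicate block, and the cause was not tested. DESeq2 and the likelihood ratio test each gave 1 call in mitochondrial DNA maintenance, and 3 and 2 calls among nucleotide and phosphate carriers, where the quasi-likelihood test gave none. Ndufaf2 turned to 0.0042 with upper-quartile factors, 0.035 with no filter and 0.16 with library totals, Cox6b1 to 0.10 with library totals, and Cox7a1 to 0.036 with the replicate block.

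Leaving out 1 library at a time gave 8 to 18 members higher and 6 to 13 lower in LP, 2 to 4 calls among biogenesis regulators, 0 to 1 in mitochondrial DNA maintenance, 0 to 1 among carriers, 9 to 16 among mitochondrial ribosomal proteins and 1 to 4 among import genes. The median of the assembly factors ranged from 0.46 to 1.03, Ndufaf2 from -0.13 to 0.10 and Cox7a1 from -0.54 to 0.32. The 6 isoform ratios kept their direction, but 29 of 32 adjusted calls were lost. Differences were 0.92 to 1.14 for Cox7a2 over Cox7a2l, 3.67 to 5.32 for Ndufa4 over Ndufa4l2, 1.2 to 1.58 for Atp5g1 over Atp5g2, 0.36 to 0.63 for Atp5g1 over Atp5g3 (gained without LP replicate 3) and -0.96 to -0.83 for Atp5g2 over Atp5g3. The smallest p that the exact permutation test can give was 0.0286 both with all libraries and with 1 left out. A pseudocount of 2 changed no isoform call.

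Libraries with the same number deviated together with correlations of 0.06 to 0.15, not all over 0.1, and other pairs with -0.16 to 0.08. In 7 of 8 libraries the best match was the library of the same number, a hint from the data only, since the labels give such libraries a shared number without saying what it marks. The replicate block gave 15 members higher and 12 lower, of which 25 were also called without it. It ended the calls of Ndufaf3 (adjusted p = 0.0671) and Atp5g2 (0.0516) and added Ndufa13 (0.0450) and Ndufaf1 (0.0323), all from edgeR. Within replicate numbers the isoform differences were 1.00 (Cox7a2 over Cox7a2l), 4.43 (Ndufa4 over Ndufa4l2), 1.36 (Atp5g1 over Atp5g2) and -0.89 (Atp5g2 over Atp5g3), with the exact sign-flip p at its lowest, 0.125, so this test could not call them. Genes of few counts, Ndufa4l2 and Cox7a1 among them, could not be compared precisely at this depth.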

Other observations

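Mitochondrial ribosomal proteins, which make the subunits encoded in mitochondrial DNA, held calls in both directions. Of 78 tested, 9 were higher in LP and 8 lower, or 21.8% called against 24.7% of all tested genes, with a median log2 fold change of 0.24. Mrpl28 had 116, 139, 116 and 134 CPM in LP and 61.2, 53.8, 70.3 and 65.7 CPM in mature libraries (1.01 ± 0.150, adjusted p = 0.00123 from edgeR). Mrpl32 (-0.94 ± 0.166, adjusted p = 0.00280 from edgeR) and Mrps6 (-1.13 ± 0.212, adjusted p = 0.00374 from edgeR) were lower in LP, and their groups did not overlap. The number called fell to 9 without LP replicate 1, LP replicate 2 or LP replicate 4 and to 11 without mature replicate 2.

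Of 25 tested genes of mitochondrial protein import, 3 were higher in LP and 1 was lower (16% called, against 24.7% of all tested genes). The median log2 fold change of the import genes was 0.19. The receptor Tomm20 had 63.3 to 74.2 CPM in LP and 94.6 to 116 CPM in mature libraries (-0.59 ± 0.142, adjusted p = 0.0122 from edgeR), and library totals alone ended this call (adjusted p = 0.0658). Timm17b (1.04 ± 0.276, adjusted p = 0.0197 from edgeR) and Timm21 (1.06 ± 0.329, adjusted p = 0.0380 from edgeR), parts of the inner membrane translocase, were higher in LP. The call of Timm17b was lost without LP replicate 2 (adjusted p = 0.0644), and that of Timm21 without any one library except LP replicate 1 and mature replicate 4, with adjusted p-values of 0.0531 to 0.103 from edgeR.

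None of 17 genes of mitochondrial DNA maintenance was called by edgeR's quasi-likelihood test (2 at an unadjusted p under 0.05, and 1 call by DESeq2), and the smallest adjusted p was that of the nuclease Mgme1 (-1.12 ± 0.410, adjusted p = 0.0716 from edgeR), which fell to 0.0204 without mature replicate 3 and was 0.0354 by DESeq2. None of 6 nucleotide and phosphate carriers was called by edgeR either (3 at an unadjusted p under 0.05, and 3 calls by DESeq2). Slc25a4, the nucleotide exchanger of muscle and heart, had 238 to 265 CPM in LP and 296 to 375 CPM in mature libraries, without overlap (-0.41 ± 0.142, adjusted p = 0.0608 from edgeR and 0.0260 from DESeq2).

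Members with an mRNA under 1000 bases, 55 of the 93 tested with a length, had a median log2 fold change of -0.03, and the longer ones 0.26. Over all tested genes the medians were -0.12 and 0.01. The part of mRNA length in the members' values was not tested.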
